A study of Oryctolagus cuniculus with 6 samples.

Results

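Unplaced naive-only regions are stretches of open chromatin on scaffolds that the rabbit assembly assigns to no chromosome, with an ATAC-seq peak in each of 3 naive corneas and in none of 3 alkali-burned corneas. They were chosen by the presence or absence of peaks in the 6 lists: overlap of at least 1 bp joined the peaks into 26220 regions, of which 9580 lay on scaffolds with names starting in GL or AAGW, and 573 of the 9580 met the rule. The absence of burned peaks is therefore how the regions were picked and not a result. The rule kept 5.98% of unplaced regions, against 12.9% of chromosomal regions (2154 of 16640) and 10.4% of all regions. The number would be 1042 without naive library 1 and 908 without naive library 3, and 74 with every list shortened to the length of the shortest.

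ATAC-seq marks accessible DNA, because a transposase inserts sequencing adaptors mainly where nucleosomes leave DNA exposed. Accessible stretches in a differentiated tissue are mostly promoters and enhancers, and the cornea combines an epithelium, a stroma of keratocytes and an endothelium, each with its own set. Unplaced scaffolds hold sequence that assembly could not order, which ranges from long stretches of ordinary genes to short contigs rich in repeats. A repeat that the assembly shows in fewer copies than the genome has collects reads from every copy, so such contigs can carry many reads in any library.

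The animals were female rabbits (Oryctolagus cuniculus). One group was naive cornea without treatment, taken from the eye opposite an injured one, and the other was cornea on which a filter disc of 8 mm with sodium hydroxide had lain for 30 s, all collected on day 14. The labels give the alkali as 1 N in 1 place and as 0.5 N in another. Each library came from whole corneal tissue, with about 100000 nuclei per reaction, so an opening in fewer cells and a smaller opening per cell cannot be told apart. The labels do not tie library numbers to animals, and p-values measure the spread between these libraries.

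The lists differed in ways that touch the rule. The genome background, the number of tags expected by chance at a position and a measure of relative depth, was 2.77 tags in naive library 1 and 1.79 to 2.11 in the other 5. Naive library 2 had the longest list (21184 peaks against 8808 and 8416 in naive libraries 1 and 3, and 2319 to 4406 in the burned libraries). On unplaced scaffolds the lists held 4704, 6126 and 3393 naive peaks and 2023, 2005 and 3292 burned peaks. Absence from a list means only that a position stayed under the limit of that list.

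Naive-only regions lay mostly on GL scaffolds, the longer of the 2 kinds of unplaced sequence. GL scaffolds held 539 of the 573 (94.1%) and AAGW scaffolds held 34 (5.93%). The AAGW share was 10.5% without naive library 2 and 12.6% without naive library 3. By comparison, AAGW scaffolds held 2058 of all 9580 unplaced regions (21.5%) and 379 of the 912 unplaced regions with a peak in all 6 libraries (41.6%). Scaffold length is not in the lists, so the position of the last peak in any list was used as a lower bound and is called the extent. The median extent was 399.6 kb for scaffolds with a naive-only region, 19.5 kb for scaffolds with a region called in all 6 libraries and 15.1 kb for all 1960 scaffolds with a peak (74.1 kb for GL and 5.63 kb for AAGW). Long scaffolds have more room for any region, and the part of this room in the difference was not tested.

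The share of naive regions without a burned peak was then taken by kind of sequence. On GL scaffolds with an extent of 1 Mb or more, 308 of 497 regions called in all 3 naive libraries (62.0%) had no burned peak. The number was 178 of 508 (35.0%) on GL scaffolds of 100 kb to 1 Mb, 53 of 333 (15.9%) on shorter GL scaffolds and 34 of 537 (6.33%) on AAGW scaffolds. Chromosomes had the highest share, 2154 of 2643 (81.5%). The share with a peak in all 3 burned libraries ran the other way, from 5.26% on chromosomes and 21.5% on the longest GL scaffolds to 60.1% on GL scaffolds under 100 kb and 70.6% on AAGW scaffolds. These shares come from the contrast that the rule used and are given as a description.

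**Figure D1:**
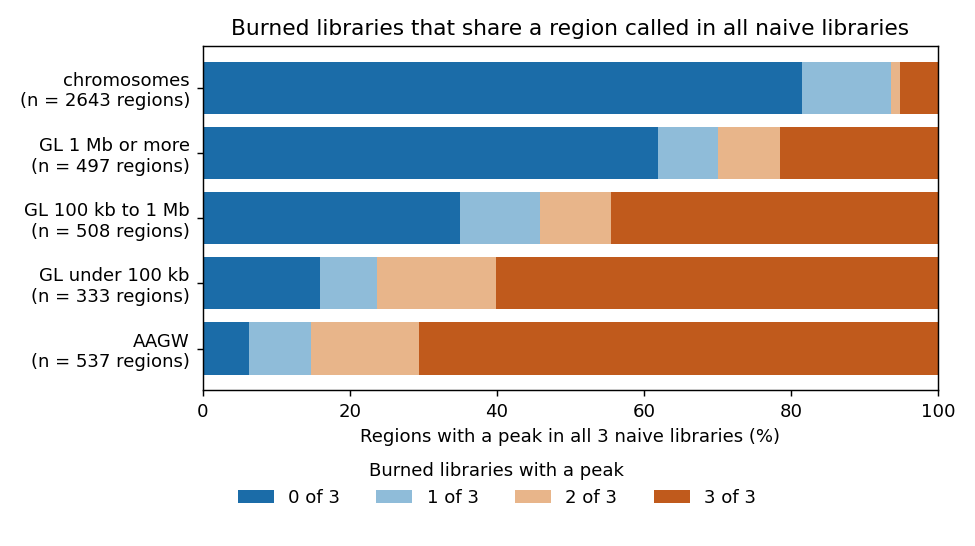
Share of regions with a peak in all 3 naive libraries (x axis, %) that had a peak in 0, 1, 2 or 3 burned libraries (colours), for chromosomes, GL scaffolds by extent and AAGW scaffolds (y axis). The share without a burned peak falls from 81.5% on chromosomes through 62.0%, 35.0% and 15.9% on GL scaffolds of falling extent to 6.33% on AAGW scaffolds.

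The 573 regions were spread over 283 scaffolds, 250 GL and 33 AAGW. A single region was found on 174 scaffolds and a pair on 48, whereas 61 scaffolds with 3 or more held 303 of the regions. The 5 scaffolds with most regions held 62 (10.8%) in all. GL018704 led with 18 over an extent of 6.66 Mb, or 2.70 per Mb. Every region there that all 3 naive libraries called was naive-only (18 of 18), and the burned libraries 1, 2 and 3 had 0, 0 and 1 peaks on the whole scaffold, against 22, 81 and 38 in naive libraries 1, 2 and 3.

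GL018734 had 12 naive-only regions over 2.61 Mb, the highest density of the 5 at 4.60 per Mb. Naive libraries 1, 2 and 3 had 17, 36 and 21 peaks on GL018734 and burned libraries 1, 2 and 3 had 1, 2 and 6. GL018702 had 11 over 7.97 Mb, and again all 11 regions called in every naive library were naive-only. GL018699, with the greatest extent of the scaffolds in these lists (14.1 Mb), had 11 of 14, at 0.778 per Mb. GL018705 had 10 of 14 over 6.12 Mb, and it was the only 1 of the 5 with a region called in all 6 libraries.

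Over all scaffolds of 1 Mb or more, naive-only regions numbered 1.18 per Mb of extent. On chromosomes the density was 0.959 per Mb, with a range of 0.368 to 1.55 over the 22 chromosomes. Of the 98 GL scaffolds of that extent, 86 held at least 1 naive-only region. Among the 65 with at least 3 regions called in every naive library, all of those regions were naive-only on 16 scaffolds and none was on 3. The 3 were GL018708, GL018745 and GL018762, and they were named after their values were seen. GL018762 differed most from the richest scaffolds: it had 27 regions called in every naive library, 17 of them called in all 6 libraries, and 48, 37 and 99 peaks in burned libraries 1, 2 and 3. GL018708 and GL018745 had only 4 and 3 regions called in every naive library. These scaffolds are extremes of the contrast that the rule used and are given as a description.

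**Figure D2:**
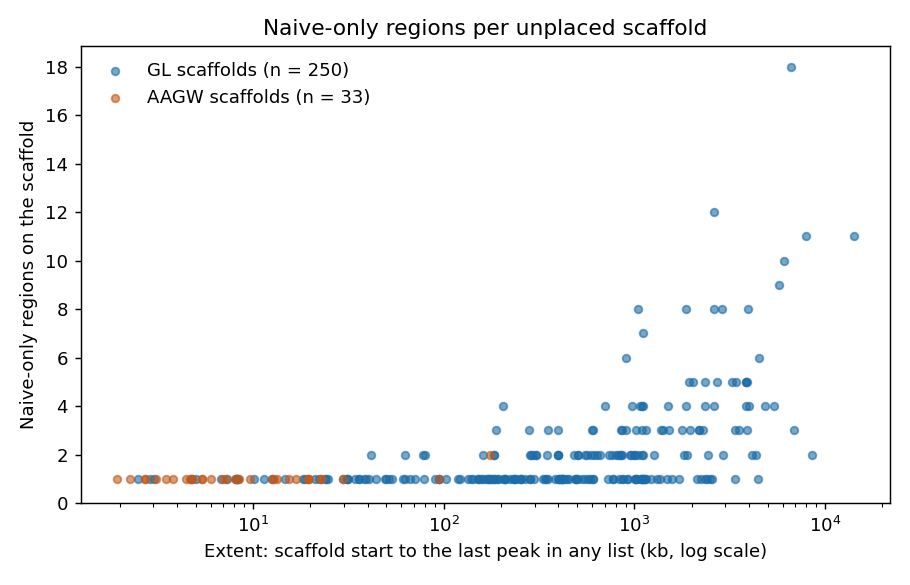
Number of naive-only regions (y axis) on each of the 283 unplaced scaffolds that had any, against the scaffold's extent in kb (x axis, log scale), 1 point per scaffold. AAGW scaffolds (33) hold 1 or 2 each, and the points with 8 or more are all GL scaffolds, up to 18 on GL018704.

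The 10 strongest naive-only regions had mean folds of 8.31 to 9.64, where fold is the authors' own ratio of summit to local background for a peak. Strongest and weakest regions are named by mean fold. GL018888 at 423241 to 423719 ranked first, with folds of 6.71, 12.6 and 9.66 in naive libraries 1, 2 and 3 (9.64 ± 2.92, SD, n = 3). Its summit, the position with most tags, held 30, 59 and 33 tags, and the 3 summits lay within 14 bp of each other. The nearest burned peak on GL018888 was 348.4 kb away, and no region on that scaffold was called in all 6 libraries.

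GL018713 at 480444 to 480946 ranked next, with folds of 9.41, 11.7 and 7.65 and summits of 44, 57 and 27 tags. It had the highest fold of the naive-only regions in naive library 1. GL018796 at 1076991 to 1077300 had folds of 6.69, 12.6 and 8.05 (9.10 ± 3.07) and was the only 1 of the 10 strongest with a burned peak within 10 kb: a region called in all 6 libraries lay 2.09 kb away. Its 3 summits lay within 3 bp.

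GL018782 at 785901 to 786788 had a mean fold of 8.98 ± 1.48. GL018829 at 234586 to 235187 had 6.44, 12.0 and 7.77, and GL018771 at 233211 to 233809 had 7.69, 8.88 and 8.86. The last of these varied least between libraries of the 10, with an SD of 0.681. The other 4 of the 10 had mean folds of 8.31 to 8.38. They were GL018731 at 69689 to 70257, GL018852 at 527791 to 528778 and a pair on GL018702, at 4308160 to 4308879 and at 1043996 to 1044923. In all 10, the fold was highest in naive library 2, and in 9 of the 10 it was lowest in naive library 1, the exception being the region on GL018713.

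AAGW scaffolds gave naive-only regions of lower fold. The highest was AAGW02082996 at 7637 to 8089, with folds of 5.30, 7.91 and 6.97 in naive libraries 1, 2 and 3 (6.73 ± 1.32). AAGW02083520 at 5256 to 6007 had 6.67, 7.64 and 5.41, and AAGW02082414 at 1204 to 1948 had 5.84, 7.28 and 6.13. None of these 3 scaffolds had any burned peak. AAGW02077230 was the only AAGW scaffold with a pair of naive-only regions, at 149205 to 149690 (mean fold 6.31) and 175163 to 175668 (6.18). Median mean fold was 4.47 over the 34 AAGW regions and 5.34 over the 539 GL regions. The gap was widest in naive library 2. Median folds in naive libraries 1, 2 and 3 were 4.04, 4.79 and 4.74 on AAGW and 4.25, 6.73 and 5.23 on GL. Median summits were lower on AAGW only in naive library 2, with 24.5, 26 and 21.5 tags against 23, 31 and 21 on GL.

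The naive-only regions of lowest fold stood in high local background. AAGW02081924 at 1241 to 1472 had folds of 2.23, 2.23 and 2.13, the lowest of all 573, although its summits held 72, 53 and 49 tags. Its local background in naive library 2 was 12.9 times the genome background, and a region called in all 6 libraries lay 646 bp away. AAGW02083370 at 1790 to 2221 (mean fold 2.60), GL019948 at 1534 to 2113 (2.74), GL019081 at 11235 to 11544 (2.93) and GL020011 at 1464 to 2120 (2.93) followed. Each of these 5 had a burned peak on the same scaffold, 45 to 1151 bp away.

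Naive-only regions were 232 to 1253 bp wide, with a median of 503 bp. The widest were GL018965 at 292491 to 293743 (1253 bp), GL018993 at 142606 to 143816 (1211 bp) and GL018752 at 1351960 to 1353089 (1130 bp), with mean folds of 6.67, 6.76 and 5.54. Exactly 1 peak per naive library made up 545 of the 573 regions. Median peak width was 290, 475 and 318 bp in naive libraries 1, 2 and 3. The peaks of naive library 2 were the widest by this median.

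Over the 573 regions, the median fold was 4.25 in naive library 1, 6.67 in naive library 2 and 5.19 in naive library 3. Naive library 2 had the highest fold of the 3 at 481 regions, and naive library 1 the lowest at 479. Summits had a median of 23, 31 and 21 tags, which is 8.30, 17.3 and 11.7 times the genome background of each library. The ranking of regions was shared in part: Spearman's rho of the fold between pairs of naive libraries was 0.547, 0.540 and 0.634 and Pearson's r 0.573, 0.567 and 0.661 (n = 573 regions, which share their libraries). Summits of the same region lay a median of 43 to 47 bp apart between naive libraries.

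Compared with the 912 unplaced regions called in all 6 libraries, naive-only regions had less local background. In naive libraries 1, 2 and 3 it had a median of 1.61, 2.13 and 1.76 genome backgrounds, against 4.21, 4.40 and 4.52 at regions called in all 6. On the log2 scale the difference was -1.26 ± 0.191 (SD, n = 3 libraries), which is 2.40-fold less, and it was lower in 3 of 3 libraries (exact two-sided sign-flip test, p = 0.25, the smallest p that 3 libraries can give, 0.3 after Benjamini-Hochberg adjustment over 6 comparisons). Within GL scaffolds alone the log2 difference was -0.823, again lower in 3 of 3 libraries (exact p = 0.25). Only 13 of the 573 (2.27%) had a local background over 4 times the genome background, against 489 of the 912 (53.6%). These sets were split by their burned peaks, and the part of that choice in the difference was not tested. Local background was itself solved from the fold and p of the same naive peaks.

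Fold was not clearly different between these sets. The log2 difference, naive-only minus regions called in all 6, was 0.02, 0.64 and 0.29 in naive libraries 1, 2 and 3, with a mean of 0.32 ± 0.313 (exact sign-flip p = 0.25, adjusted p = 0.3, n = 3), so the spread between libraries was as large as the mean. Against GL regions alone the mean was 0.17 and the exact p was 0.5. At equal list length the mean was 0.02 (exact p = 0.75), and it was 0.12 without naive library 2 (exact p = 1, n = 2). Peak width differed by -229, 37 and -129 bp, with no common direction (exact p = 0.5, adjusted p = 0.5, n = 3). Summits, unlike fold, were lower at naive-only regions in each naive library. Their medians in naive libraries 1, 2 and 3 were 8.30, 17.3 and 11.7 times the genome background, against 19.5, 21.8 and 22.8 at regions called in all 6. This difference in summits was not tested. Regions called in all 6 also had to pass the limit of the burned lists, which bears on their height.

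The 2154 chromosomal naive-only regions passed the same rule, and unplaced ones differed little from them. Median fold on chromosomes was 4.61, 7.37 and 5.79 in naive libraries 1, 2 and 3, and the log2 difference, unplaced minus chromosomal, was -0.14 ± 0.0218 or 1.10-fold lower (lower in 3 of 3 libraries, exact p = 0.25, adjusted p = 0.3). Local background was 0.24 ± 0.0588 higher on the log2 scale, or 1.18-fold (higher in 3 of 3, exact p = 0.25, adjusted p = 0.3). Median peak width differed by -12, -28.5 and -16 bp in the 3 libraries, narrower on unplaced scaffolds (mean -18.8 ± 8.61, SD, n = 3, exact p = 0.25, adjusted p = 0.3). Each of these differences exceeded its spread between libraries, but none could pass a limit of 0.05 with 3 libraries. With every list limited to the length of the shortest, the width difference was 21.5 bp, with wider peaks on unplaced scaffolds, and it was -37 bp without naive library 3, -12.5 bp without naive library 1 and -31.2 bp when the longest naive and burned lists were dropped.

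**Figure D3:**
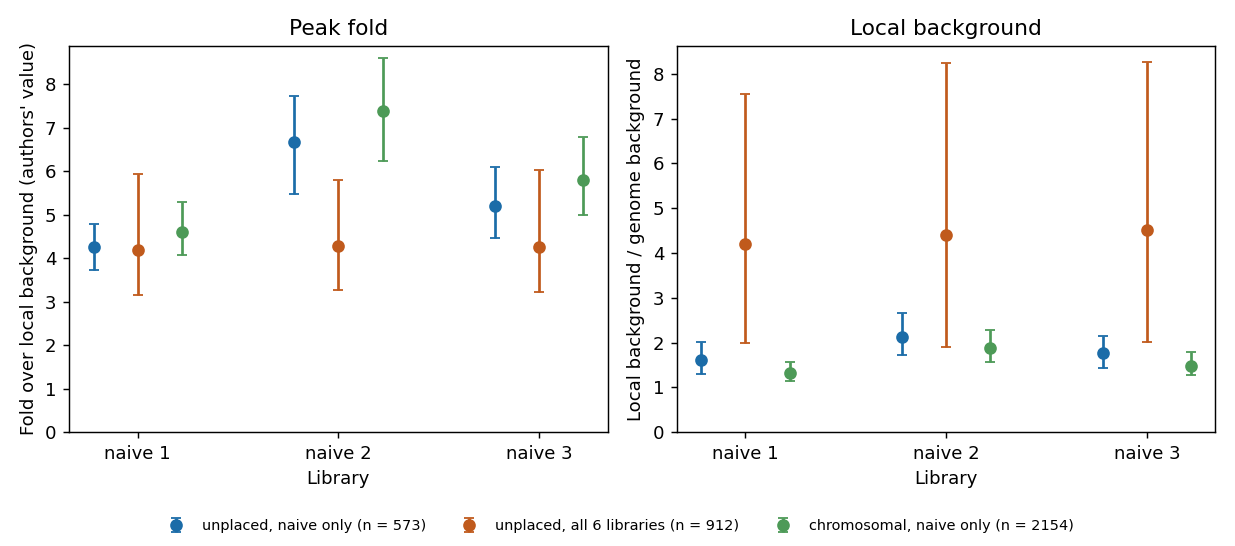
Median fold over local background (left) and median local background over the genome background (right) in each naive library, for unplaced naive-only regions, unplaced regions called in all 6 libraries and chromosomal naive-only regions. Points are medians over regions and bars run from the lower to the upper quartile of regions, and are not the spread between corneas. In the right panel the regions called in all 6 have medians of 4.21 to 4.52, above both naive-only sets (1.31 to 2.13).

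Scaffolds with a naive-only region held a region called in all 6 libraries about as often as unplaced scaffolds in general. Their median extent was far longer, 399.6 kb against 15.1 kb, and its part in these shares was not tested. Of the 283 scaffolds with a naive-only region, 80 (28.3%) also had a region called in all 6, and these 80 were 16.2% of the 495 scaffolds with such a region. Over all 1960 scaffolds with a peak, 25.3% had a region called in all 6 and 14.4% a naive-only region. No region called in all 6 lay on the scaffold of 403 of the 573 naive-only regions (70.3%), against 65.3% of the 8668 unplaced regions not called in all 6. The other 170 had one at a median distance of 230.6 kb (quartiles 81.3 and 748.5 kb). Only 7 lay within 1 kb, 12 within 10 kb and 52 within 100 kb.

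The same distances in other sets of unplaced regions give the scale. Regions with peaks in 2 naive and 0 burned libraries were near the naive-only regions in both values: 281 of 884 (31.8%) had a region called in all 6 on the scaffold, against 29.7% of the naive-only regions, at a median of 166.4 kb. Over the 8668 regions not called in all 6, the share was 34.7% and the median 69.7 kb. Regions called in all naive and in 1 or 2 burned libraries had higher shares, 67 of 166 (40.4%) and 123 of 224 (54.9%), at medians of 9.78 and 3.44 kb. The distance was shortest among regions called in all 6 themselves. Of the 912, 465 (51.0%) had another within 10 kb, with a median distance of 2.21 kb to the next for the 626 that shared a scaffold with another. Short scaffolds limit the distances that can occur, and their part in these values was not tested.

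The naive-only regions nearest to a region called in all 6 were AAGW02083809 at 564 to 897 (38 bp away), AAGW02081400 at 328 to 673 (68 bp) and GL020011 at 1464 to 2120 (151 bp). Their mean folds were 3.06, 3.58 and 2.93. The farthest were GL018705 at 140778 to 141365 (5.34 Mb away) and a pair on GL018706 at 5544251 to 5544871 and 5568707 to 5569157 (4.19 and 4.22 Mb), with mean folds of 5.97, 5.62 and 4.79.

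Fold and local background differed at the shortest distances. Local background is the divisor of fold, so these values are not independent. The 12 naive-only regions within 10 kb of a region called in all 6, of which 7 were on AAGW scaffolds, had a median mean fold of 3.25 (range 2.20 to 9.10) and a median local background of 4.97 times the genome background. The 40 at 10 to 100 kb had 5.13 and 1.85, the 80 at 100 kb to 1 Mb had 5.12 and 1.69, and the 38 beyond 1 Mb had 5.74 and 1.67. The 403 with none on the scaffold had 5.38 and 1.77. Beyond 10 kb, the values of these groups thus lay close together. The nearest group is small, and it includes GL018796 at 1076991 to 1077300, the third strongest region of all.

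Burned peaks of any kind were somewhat closer, which was largely fixed, since regions called in all 6 contain burned peaks. A region called in all 6 lay on the scaffold of only 170 naive-only regions, so the medians cover different sets. A burned peak lay on the same scaffold as 474 of the 573 regions, at a median of 127.0 kb, and within 1 kb of 20 (3.49%). The closest were 38 bp (AAGW02083809 at 564 to 897) and 45 bp (GL019081 at 11235 to 11544) away. The other 99 regions lay on scaffolds without any burned peak.

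**Figure D4:**
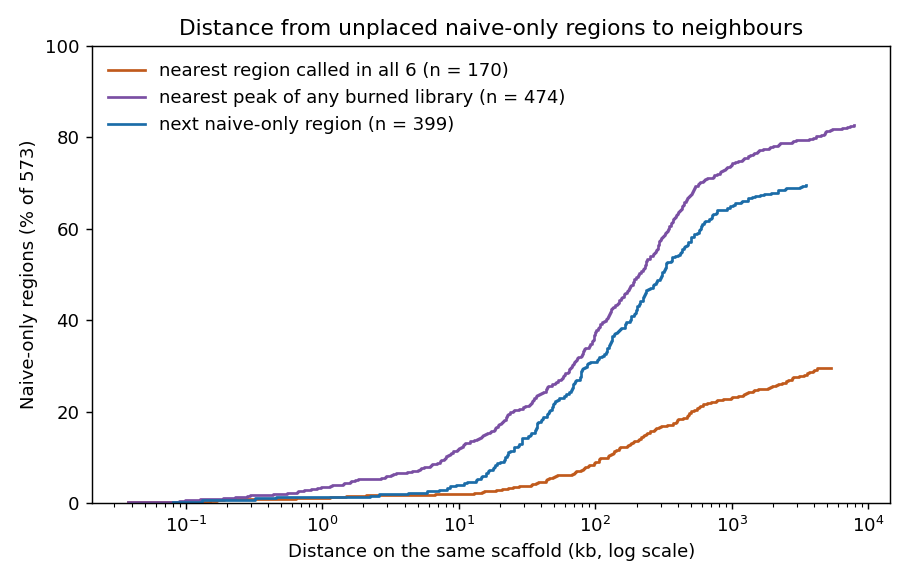
Cumulative share of the 573 naive-only regions (y axis, %) with a neighbour on the same scaffold within a given distance (x axis, kb, log scale), for regions called in all 6 libraries, peaks of any burned library and the next naive-only region. The lines end at 170, 474 and 399 regions, the numbers with such a neighbour, and the line for regions called in all 6 stays lowest beyond 10 kb. Its place below the line for burned peaks was largely fixed, since regions called in all 6 contain burned peaks.

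Naive-only regions were seldom close to each other. Of the 399 that shared a scaffold with another, the median distance to the next was 128.7 kb, and 23 of the 573 (4.01%) had one within 10 kb. These 23 formed 11 groups, 10 of them pairs. The only group of 3 lay on GL019039 at 192528 to 196193, within 3.67 kb, with mean folds of 4.06 to 5.12. A start within 1 kb of the scaffold's first base was found for 10 naive-only regions (1.75%) and for 169 of the 912 regions called in all 6 (18.5%). Scaffolds with a region called in all 6 had a shorter median extent, 19.5 kb against 399.6 kb. The part of scaffold length in these shares was not tested.

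The edge of the rule can be described from both sides. Just inside it, the weakest naive peak of GL018703 at 3270307 to 3270996 had a -log10 q of 1.69 (naive library 3), and that of GL018730 at 482716 to 483185 had 2.05 (naive library 1). In 39 of the 573 regions the weakest naive peak had a -log10 q under 3, and it was the peak of naive library 1 in 375. Just outside it lay 166 unplaced regions that all 3 naive libraries and a single burned library called. That library was burned library 3 in 119, burned library 2 in 30 and burned library 1 in 17. The weakest of those burned peaks, on AAGW02082989 at 7188 to 8245, had a -log10 q of 2.19. At the 166 regions the median fold was 4.22 in the burned peak and 4.77 as the mean of the naive peaks. Median summits there were 10.4 and 15.3 genome backgrounds. Taken singly, naive libraries 1, 2 and 3 had folds of 4.18, 5.09 and 4.76 and summits of 11.2, 18.4 and 15. Naive library 1 thus lay close to the burned values. Burned libraries 1, 2 and 3 had folds of 3.87, 3.58 and 4.39 and summits of 12.0, 15.6 and 9.90. The 166 were picked by their burned peaks, and the part of that choice in these values was not tested. A further 884 regions had peaks in 2 naive and 0 burned libraries.

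Relative depth was set beside the absence of burned peaks. Summit tags and local background of each naive peak were scaled to the genome background of each burned library and compared with the lowest -log10 p in that list (5.24, 5.20 and 4.30 in burned libraries 1, 2 and 3). All 3 scaled naive peaks reached that limit at 431 (75.2%), 511 (89.2%) and 552 (96.3%) of the 573 regions. At the limit of burned library 1, the scaled peaks of naive libraries 1, 2 and 3 taken singly passed at 433, 571 and 571 regions. The rule had already required a peak in every naive list, where the lowest -log10 p was 4.45, 3.97 and 4.53. The shares for all 3 naive peaks were thus largely fixed by the choice of regions. They say nothing of why burned peaks were absent, and they were as high or higher at chromosomal naive-only regions (79.9%, 91.0% and 97.8%) and at the 166 regions with a peak in 1 burned library (86.7%, 92.2% and 99.4%). At the 912 unplaced regions called in all 6, the summit over genome background in burned libraries 1, 2 and 3 was a median of 1.06, 0.978 and 1.09 times the naive mean. A peak in every burned list was required of those 912, which bears on this ratio. The scaling assumes that genome background measures depth alike in every library, which was not tested.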

How the data were processed

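ATAC-seq peak lists of 6 libraries, 1 per cornea, were used. The submitters' processing notes name FastQC, Bowtie2, SAMtools and the build OryCun2.0. The sources used here do not give the caller, the handling of duplicates or any cut shift. The deposited fold was read as a ratio of summit to local background tags, with 1 added to each. The deposited -log10 p-value and q-value are per peak. The deposited score was not used. Total reads are unknown. Summit tags and local background were solved from fold and p (all peaks within 0.001), a reading of the caller's model inferred from the values. The most frequent background of a list was its genome background.

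Where a library had several peaks in a region, that of highest fold was taken. Sets were compared by within-library differences of medians over 3 naive libraries, with exact two-sided sign-flip tests (smallest p 0.25). Regions, sets and tests were chosen with earlier results of these data known. Named were the 10 strongest regions, 5 strongest on AAGW, 5 weakest, 3 widest, 3 nearest to and 3 farthest from a region called in all 6, and the 5 richest scaffolds. Alternatives were a stricter q limit, equal list lengths, coverage of 50%, merging within 100 bp, low local background, GL scaffolds alone, leaving out libraries, means, and the lowest-fold peak. Code for merging and tag recovery was tested on simulated data. No gene annotation or sequence of this build was used, so nearest genes were not analysed here. Tools were scipy 1.17.1, pandas 2.3.3 and numpy 2.4.6 under Python 3.11.15, with plots by matplotlib 3.10.9. Coordinates count from 1.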

Additional observations from a re-analysis of the deposited data

How the results depend on the processing

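The number of unplaced naive-only regions was 350 at a -log10 q of at least 5, 74 at equal list length and 62 with local background under 1.5 times the genome background. Leaving out 1 library gave 591 to 1042 (1042 when naive library 1 was dropped, 908 when naive library 3 was), which loosens the rule by construction. Of the 573 regions, 54 overlapped a naive-only region at equal list length, and all 10 strongest did, whereas 1 of those 10 did with low local background. Of the 74 regions at equal list length, 20 touched a burned peak outside the shortened lists. The share on AAGW scaffolds was 1.35% at equal list length, 11.9% without the longest list of each group, and 9.68% with low local background, and leaving out 1 library gave 5.47% to 12.6%. Median width was 565 bp at the stricter q, 639 bp at equal length, 478 bp at 50% coverage, 381 bp without the longest lists, and 445.5 bp with low local background, and leaving out 1 library gave 372 to 508.5 bp. The median of mean fold was 6.93 at equal length. The median distance to a region called in all 6 was 997.5 kb at equal length, 127.9 kb without the longest lists, and 84.3 kb with low local background, and leaving out 1 library gave 168.4 to 290.7 kb.

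The mean difference from regions called in all 6 kept its sign in every alternative run for local background (14 of 14) and width (15 of 15). For width, naive libraries 1, 2 and 3 themselves had no common direction (-229, 37 and -129 bp). The sign was kept in 14 of 15 for log2 fold. That difference was -0.34 with low local background and 0.02 (exact sign-flip p = 0.75) at equal list length, where hardly any difference was left. The mean difference from chromosomal naive-only regions kept its sign for local background (14 of 14) and log2 fold (15 of 15), and in 14 of 15 for width. The width difference was 21.5 bp at equal list length and -37 to -12.5 bp when 1 library was left out. The cause was not tested. No paired analysis was possible because the burned libraries have, by the rule, no peak at these regions, so every test was made within naive libraries. Signal under a list's limit is not shown, so a weaker opening and a closed region look the same here.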
